A study of Mus musculus with 10 samples.

Results

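Transcripts of the nuclear-encoded subunits of the 5 complexes of oxidative phosphorylation were compared between the wild-type mouse melanoma line B16-F1 and its derivative B16-F1ΔFOXC2, which per the labels has no FOXC2, a forkhead transcription factor. Members were taken by gene symbol (Nduf followed by a, b, c, s or v and a digit, Sdha to Sdhd, Uqcr, Cox5 to Cox8, and Atp5). Atp5e on chromosome 2 and Cox5b, Ndufb3 and Ndufs1 on chromosome 1 lie in stretches set aside by the same rule and were not analysed here. This left 72 of the 10735 genes in the table: 35 of complex I, 4 of complex II, 8 of complex III, 10 of complex IV and 15 of complex V. Symbols set the complex. Ndufa4 and Ndufa4l2 are therefore counted under complex I, although the Ndufa4 protein is known as a subunit of complex IV. Cox7a2l, which acts in joining complexes into supercomplexes, is counted under complex IV, and Atp5s, a coupling factor that is not a structural subunit, under complex V.

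There were 5 libraries of each genotype. Both lines have the C57Bl/6 background, carry no further labelled allele or treatment, and were grown in medium with 10% serum for 24 h to about 90% confluence at passages 5 to 10. The labels do not say whether ΔFOXC2 is 1 clone or several, so p-values rest on the variation among cultures of a single pair of lines, and a difference of other origin between the lines cannot be told apart from one due to the genotype. Values are FPKM (fragments mapped to a gene, per length of its transcript and per mapped fragments of the library), which can be compared between genes because they are per length. In bulk RNA, fewer cells of a kind and less RNA per cell cannot be told apart. The table sums to 240441 to 251273 FPKM per library, and its depth is unknown. The 9 melanocyte-lineage markers looked for (Mitf, Sox10, Tyr, Tyrp1, Dct, Pmel, Mlana, Slc45a2 and Gpnmb) were all present, at means over the 10 libraries of 67.1 to 965 FPKM, and all 9 were lower in the wild type. Of 9 macrophage markers, 3 were in the table (Cd68, Lyz2 and Fcer1g, at 0.910 to 1.36 FPKM over all libraries), and all 3 were lower in the wild type (summed level 1.58 to 2.08 FPKM there and 3.70 to 5.95 FPKM in ΔFOXC2 cells). The melanocyte markers summed to 3611 to 4151 and 4461 to 4925 FPKM. Of the macrophage markers, Lyz2 differed most, with a wild-type mean of 0.386 FPKM and a ΔFOXC2 mean of 2.33 FPKM. Only the latter reached the 0.5 FPKM used as the filter of the test, so a difference was favoured by the filter. Fcer1g lies on chromosome 1, where 346 of 573 tested genes were lower. By limma, 20.7% of all tested genes were called lower. The part of the melanocyte and macrophage markers in the results was not tested. Of 7 fibroblast markers only Col1a2 was in the table (0.786 FPKM), and of 7 endothelial markers none was.

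Complex I (NADH dehydrogenase) and complex II (succinate dehydrogenase) feed electrons into ubiquinone in the inner mitochondrial membrane. Complex III (the cytochrome bc1 complex) passes them to cytochrome c, and complex IV (cytochrome c oxidase) passes them to oxygen. Complexes I, III and IV pump protons, and complex V (ATP synthase) uses the proton gradient to make ATP. The nucleus encodes all of complex II and most subunits of the others, while mitochondrial DNA encodes a set of core subunits of complexes I, III, IV and V. Nuclear subunit genes are known as shared targets of NRF1, of the ETS factor GABP and of ERRα, together with the coactivator PGC-1α, which in human melanoma is known as a target of MITF.

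The promoters of the 4 called members on chromosomes other than 1 and 8 whose calls held under all alternatives, other than the very low Ndufa4l2, are shown. These members were picked by their calls in these data, and some other members had larger differences. Each line gives the 100 bases just upstream of the RefSeq transcription start on the gene's own strand (RefSeq, GRCm38.p6). Capitals mark the NRF1 core GCATGCG. Ndufs8 is at chr19:3912775-3912874 (minus strand), Sdhb at chr4:140961171-140961270 (plus), Uqcrfs1 at chr13:30545317-30545416 (minus) and Cox8a at chr19:7217617-7217716 (minus).
Ndufs8: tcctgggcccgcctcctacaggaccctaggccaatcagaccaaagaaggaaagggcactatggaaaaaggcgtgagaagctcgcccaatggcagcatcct
Sdhb: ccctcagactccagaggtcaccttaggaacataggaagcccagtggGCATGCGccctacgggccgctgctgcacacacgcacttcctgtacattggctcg
Uqcrfs1: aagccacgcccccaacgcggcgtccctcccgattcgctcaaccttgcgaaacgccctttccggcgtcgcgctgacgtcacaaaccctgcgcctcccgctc
Cox8a: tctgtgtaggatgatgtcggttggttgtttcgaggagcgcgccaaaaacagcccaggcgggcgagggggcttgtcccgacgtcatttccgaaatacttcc

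Motifs were searched on both strands in 300 bases, from 250 before to 50 after the start, and RefSeq promoters were matched for 61 of the 72 members. The NRF1 core GCATGCG occurred in the promoters of 11 of these 61 genes (18.0%), against 4.96% of 17492 protein-coding genes with a RefSeq promoter and 7.96% of the 8593 of them in the table, a gene with several promoters counting once. The ETS core CCGGAAG occurred for 24.6% of members, against 12.9% and 22.4% of the same sets, so its share in members was close to that of the genes in the table. The YY1 core ATGGCGG occurred in 16.4% against 6.05% and 10.5%, and the ERRα core AAGGTCA in 11.5% against 4.73% and 3.57%. The NRF1 core can match both strands at positions 1 base apart, and such a promoter was counted once. Among the promoters shown, Sdhb held the NRF1 core at position -54 and an ETS core at 7, Ndufs8 held an ETS core at 16, Cox8a held an ETS core from -5 across the start, and Uqcrfs1 held none of the 4 motifs. A match is a description of the letters and not evidence of binding.

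Subunit genes were among the more strongly expressed genes, with 67 of 72 above the median gene of the table (7.999 FPKM) and a median member level of 67.3 FPKM. The most abundant member of each complex was Ndufb9, Sdhd, Uqcrb, Cox7b and Atp5b in turn, and Atp5b led all of them with a mean of 334 FPKM. The least abundant were Ndufa4l2 (0.635 FPKM), Sdhc (23.7), Uqcrc2 (35.7), Cox6a2 (0.465) and Atp5s (2.80). Libraries of one genotype varied little: the median coefficient of variation of a member was 7.18% among wild-type and 4.35% among ΔFOXC2 libraries. Only 6 members exceeded 15% in either group. Ndufa12 ranged from 64.5 to 97.9 FPKM in the wild-type libraries and from 69.9 to 103 in ΔFOXC2 cells, and Cox5a from 16.8 to 30.7 and from 21.6 to 25.4.

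**Figure D1:**
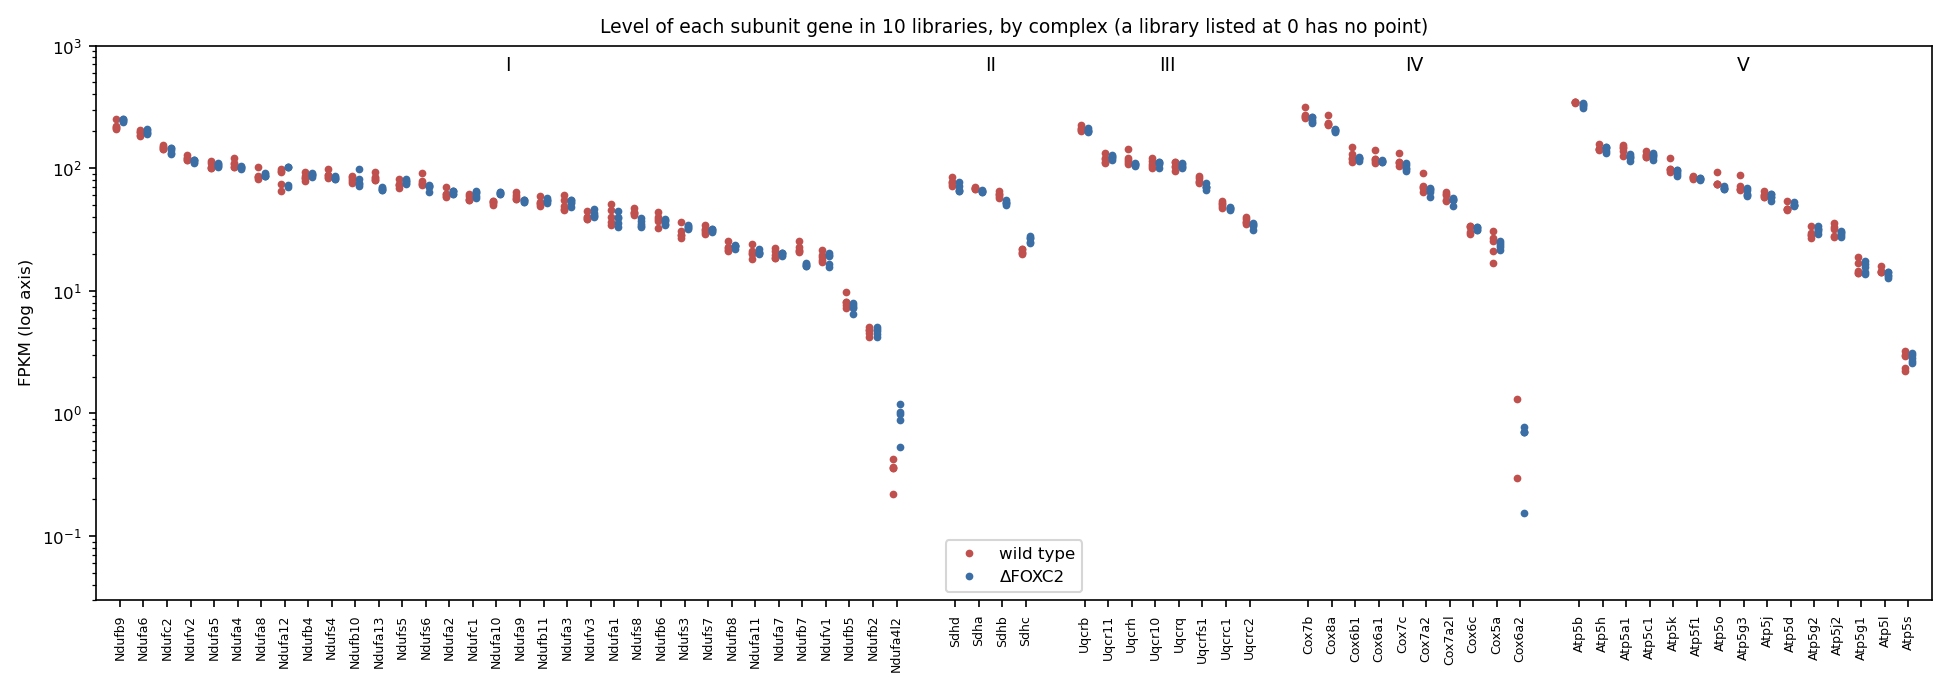
FPKM on a log axis of 71 subunit genes, ordered by level within complexes I to V, with 1 point per library for 5 wild-type and 5 ΔFOXC2 libraries; values of 0 have no point. The groups lie close together for most genes, Atp5b is highest at a mean of 334 FPKM, and Ndufa4l2 (0.635 FPKM) and Cox6a2 (0.465 FPKM) are lowest.

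Wild-type replicate 1 stood apart for these genes. It was the highest of the 5 wild-type libraries in 58 of 72 members (80.6%), against 29.2% of all genes tested. Its summed FPKM over the 72 members was 6305, compared with 5542 to 5654 in the other wild-type libraries and 5438 to 5591 in ΔFOXC2 cells. No ΔFOXC2 library was the highest of its group in more than 27.8% of members. Mitochondrially encoded transcripts did not share this pattern to the same degree: the library was the highest of its group in 6 and the lowest in 4 of those 13. Counts are therefore given with and without this library.

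Differences were tested with limma on log2(FPKM + 0.1), wild type minus ΔFOXC2, with p-values adjusted over 10570 genes. Of the 71 members tested, 14 were higher and 5 lower in the wild type (adjusted p not above 0.05), and 52 did not pass. Members were thus called in 26.8% of cases, below the 41.6% of all genes (20.8% higher and 20.7% lower). By unadjusted p, 28 members passed, and 49.4% of all genes did. Only Ndufa4l2 passed at 1.5-fold, where 8.62% of all genes did. Without wild-type replicate 1, 10 of 72 members were higher (13.9%) and 12 lower (16.7%), against 20.9% and 20.7% of all genes, and the excess of higher over lower members was not present. The count of higher members was also 8 without ΔFOXC2 replicate 1 or 4 and 9 without ΔFOXC2 replicate 2 or 3.

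The differences were small. The median member was 0.04 higher in the wild type on the log2 scale (0.01 over all genes), 0.01 without wild-type replicate 1. The difference was under 0.2 in size in 61 of the 71 members (85.9%), compared with 56.4% of all genes. The median size was 0.08 in members and 0.17 over all genes, and the median standard error 0.0521 and 0.0748. The 1272 genes between the lower and upper quartiles of member level had a median size of 0.13 and were called in 48.8% of cases. Groups did not overlap in 13 members, 10 higher and 3 lower, where 30.0% of all genes did not (14.9% higher and 15.1% lower).

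**Figure D2:**
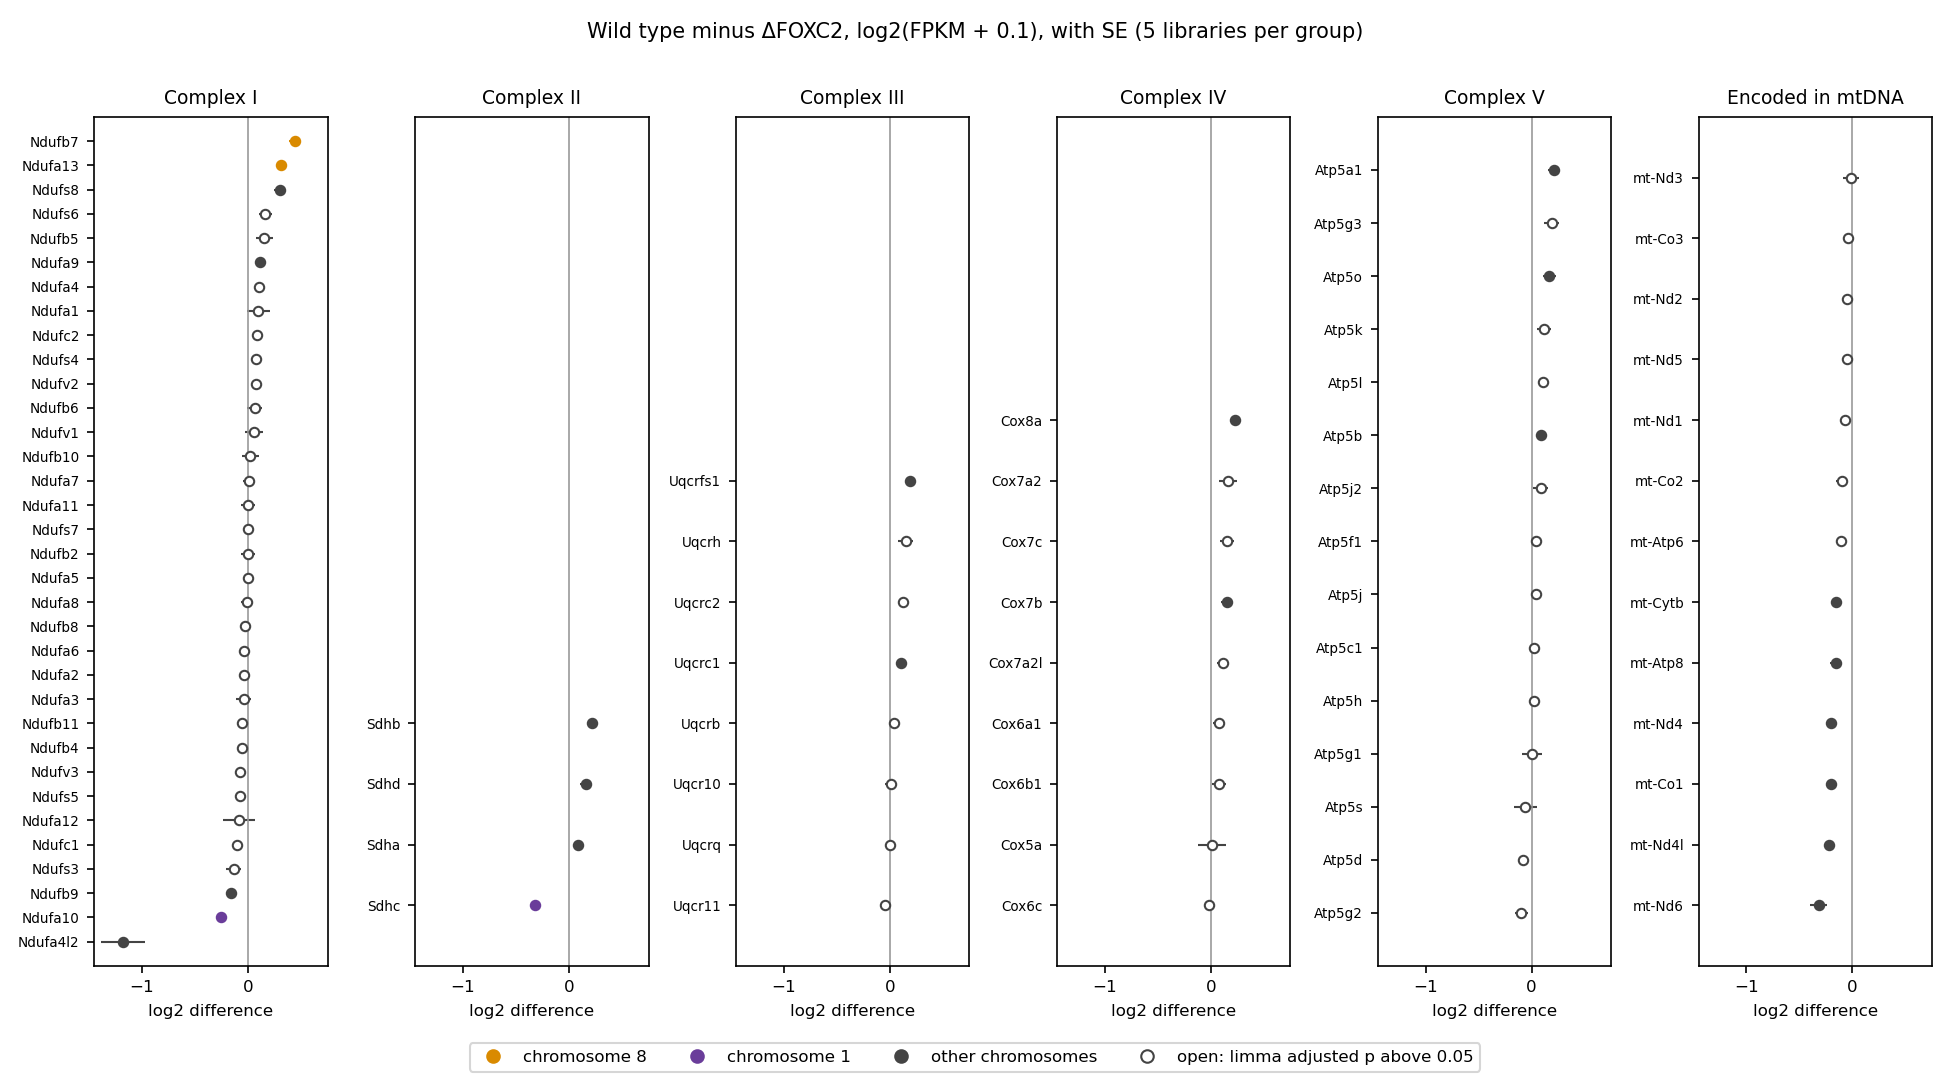
Log2 difference, wild type minus ΔFOXC2 on log2(FPKM + 0.1), of 70 tested subunit genes by complex and of the 13 mitochondrially encoded subunit genes, with standard errors from 5 libraries per group; filled points have a limma adjusted p of at most 0.05. Complexes II to V lie mostly above 0 and complex I on both sides, the calls on chromosome 8 are higher and those on chromosome 1 lower, and all 13 mitochondrially encoded genes are below 0.

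Complex I genes were divided between the directions, with 4 higher, 4 lower and 27 not called of 35 and a median log2 difference of 0.00. Of these genes 22.9% were called, against 41.6% of all genes (20.8% higher and 20.7% lower). Without wild-type replicate 1 there were 3 higher and 9 lower, with a median of -0.04, the additional lower genes being Ndufs3, Ndufs5, Ndufb4, Ndufb11 and Ndufc1 (log2 differences -0.20 to -0.09). The 6 core subunits of the group, which hold the flavin, iron-sulfur clusters and quinone site, included Ndufs8 among the higher genes. Of the 29 accessory genes 3 were higher (Ndufb7, Ndufa13 and Ndufa9) and 3 lower (Ndufa10, Ndufb9 and Ndufa4l2).

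Ndufb7, an accessory subunit of the membrane arm (ENSMUSG00000033938.5, GRCm38 chromosome 8, 83566671 to 83571626), had 25.3, 21.4, 22.7, 21.1 and 20.8 FPKM in wild-type replicates 1 to 5 and 17.0, 15.98, 16.1, 15.9 and 16.6 FPKM in ΔFOXC2 replicates 1 to 5. Every wild-type library was above every ΔFOXC2 library. The mean level was 22.2 ± 1.87 against 16.3 ± 0.460 FPKM (SD, n = 5 each), a log2 difference of 0.44 (SE 0.0549, limma adjusted p = 7.72e-05). Ndufa13, also known as GRIM-19 and required for assembly of the complex, lies on chromosome 8 too (69894180 to 69902558). Its levels were 93.2, 83.4, 80.5, 80.5 and 85.2 FPKM in the wild type against 66.7, 68.4, 67.8, 66.4 and 70.3. These groups did not overlap either, and the log2 difference was 0.31 (SE 0.0421, limma adjusted p = 0.000134). The Ndufa13 locus overlaps Yjefn3 on the same strand, and the sources used here do not say how such reads were assigned.

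Ndufa10, an accessory subunit of the membrane arm (chromosome 1, 92439010 to 92473860), went the other way. Wild-type libraries had 52.6, 52.0, 49.8, 54.0 and 54.4 FPKM, and ΔFOXC2 libraries 64.4, 63.4, 62.3, 62.1 and 61.5 FPKM. The groups were separated by a gap, and the level was 16.2% lower in the wild type (log2 difference -0.26, SE 0.0324, limma adjusted p = 9.04e-05).

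Ndufb9, a membrane-arm subunit on chromosome 15 and the most abundant gene of the complex, had 252, 208, 211, 215 and 220 FPKM in the wild-type libraries and 248, 236, 245, 252 and 253 FPKM in ΔFOXC2 cells. All wild-type libraries except replicate 1 were below all ΔFOXC2 libraries. The log2 difference was -0.16 (SE 0.0490, limma adjusted p = 0.0211). It was -0.21 without wild-type replicate 1 (adjusted p = 0.000273), and it did not pass once wild-type replicate 2 or 3 was left out (highest limma adjusted p = 0.0538). The locus overlaps the predicted gene Gm49356 on the same strand.

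Ndufa4l2, a relative of Ndufa4 known as a hypoxia-induced gene, had 0.358, 0.362, 0.422, 0.220 and 0.364 FPKM in the wild-type libraries and 0.529, 0.988, 0.881, 1.19 and 1.04 FPKM in ΔFOXC2 cells. All 5 ΔFOXC2 libraries were above all 5 wild-type libraries, at levels near the low end of the table. It passed the filter on low values only through the ΔFOXC2 group, so a difference was favoured by the filter. The log2 difference of -1.18 (SE 0.206, limma adjusted p = 0.000847) depends on the pseudocount and was between -0.51 and -1.38 over the alternatives. Its abundant relative Ndufa4 averaged 109 ± 7.48 against 101 ± 2.00 FPKM and was not called (limma adjusted p = 0.0763; 0.0412 without wild-type replicate 4).

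Ndufs8 and Ndufa9 are named after their values were seen. Ndufs8, an iron-sulfur core subunit on chromosome 19, had 47.1, 43.5, 41.7, 42.7 and 42.7 FPKM in the wild-type libraries and 33.2, 34.8, 33.4, 39.0 and 37.0 FPKM in ΔFOXC2 cells. The groups did not overlap, and the log2 difference was 0.30 (SE 0.0520, limma adjusted p = 0.000899). The call held under all 19 alternatives. Ndufa9, an accessory subunit near the quinone site, averaged 58.7 ± 3.09 against 54.4 ± 1.02 FPKM (log2 difference 0.11, limma adjusted p = 0.0404). Leaving out any of 8 libraries ended that call (wild-type replicates 1, 4 and 5 and every ΔFOXC2 replicate), with an adjusted p of up to 0.0870.

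All 4 genes of complex II were called, 3 higher and 1 lower, and without wild-type replicate 1 there were 2 higher and 1 lower. Over all genes 41.6% were called (20.8% higher and 20.7% lower). Sdha is the flavoprotein that oxidizes succinate, Sdhb carries the iron-sulfur clusters, and Sdhc and Sdhd anchor them in the membrane. Sdhb (chromosome 4, 140961203 to 140979193), whose promoter holds the NRF1 core shown, had 65.1, 56.9, 59.0, 61.5 and 61.6 FPKM in the wild-type libraries and 51.6, 53.1, 50.4, 51.8 and 54.9 FPKM in ΔFOXC2 cells. The groups did not overlap, and the log2 difference of 0.21 (SE 0.0408, limma adjusted p = 0.00152) held its call under all 19 alternatives.

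Sdha (chromosome 13) had 67.3, 69.2, 69.5, 69.9 and 67.7 FPKM in the wild-type libraries and 64.6, 63.9, 65.4, 64.5 and 66.4 FPKM in ΔFOXC2 cells. The values were separate in all 10 libraries, and the difference was 5.84% (log2 0.08, SE 0.0267, limma adjusted p = 0.0295). Leaving out any of wild-type replicates 2, 3 and 4 or ΔFOXC2 replicates 1, 2 and 4 ended its call (adjusted p up to 0.0734). Sdhd (chromosome 9) had 84.8, 72.2, 74.1, 77.1 and 76.9 FPKM in the wild-type libraries and 65.0, 66.6, 65.0, 76.6 and 71.3 FPKM in ΔFOXC2 cells. Its groups overlapped (log2 difference 0.16, SE 0.0561, limma adjusted p = 0.0376), and leaving out wild-type replicates 1, 4, 5 or ΔFOXC2 replicates 1, 2, 3, each alone, ended the call (adjusted p up to 0.0867).

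Sdhc, the other membrane anchor (chromosome 1, 171127165 to 171150603), was lower in the wild type. Its levels were 21.8, 19.95, 20.7, 20.5 and 22.1 FPKM there and 24.7, 26.8, 25.2, 27.9 and 26.9 FPKM in ΔFOXC2 cells. No libraries overlapped, and the log2 difference was -0.32 (SE 0.0454, limma adjusted p = 0.000187). The ratio between these transcripts thus differed between the lines, with Sdhc 20.1% lower and Sdhb 16.1% higher in the wild type. Genes of chromosome 1 had a median log2 difference of -0.26. Centred on its chromosome, Sdhc had a log2 difference of -0.06 and was not called. Proteins were not measured. Summed over the 4 genes the level was 228 ± 7.71 against 212 ± 7.22 FPKM, with overlapping groups.

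In complex III, 2 of 8 genes were higher, none was lower, and the median log2 difference was 0.08 (1 higher and a median of 0.05 without wild-type replicate 1). With all libraries, 41.6% of all genes were called (20.8% higher and 20.7% lower). Both calls in complex III were among the 3 core-type subunits (Uqcrfs1, Uqcrc1 and Uqcrc2, median 0.12), and none of the 5 small accessory subunits was called. The difference between core-type and accessory subunits was not tested. Uqcrfs1, the Rieske iron-sulfur protein (chromosome 13, 30540308 to 30545362), had 86.0, 78.5, 75.3, 77.4 and 83.2 FPKM in the wild-type libraries and 75.2, 69.6, 66.3, 69.8 and 70.8 FPKM in ΔFOXC2 cells. The lowest wild-type library was just above the highest ΔFOXC2 library. The log2 difference of 0.19 (SE 0.0450, limma adjusted p = 0.00647) held its call under all 19 alternatives.

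Uqcrc1, a large matrix-facing subunit on chromosome 9, had 54.0, 47.3, 49.2, 52.1 and 51.2 FPKM in the wild-type libraries and 45.9, 46.3, 48.3, 47.6 and 47.3 FPKM in ΔFOXC2 cells. The groups overlapped at their edges (log2 difference 0.11, SE 0.0392, limma adjusted p = 0.0471), and leaving out any single library other than wild-type replicate 2 ended the call (adjusted p up to 0.104). Its partner Uqcrc2 averaged 37.2 ± 1.86 against 34.2 ± 1.58 FPKM (log2 difference 0.12, limma adjusted p = 0.0509; 0.0324 at the lowest, with wild-type replicate 3 or ΔFOXC2 replicate 5 left out). Uqcrb, a small subunit that binds ubiquinone and the most abundant of the complex, had 224, 203, 213, 207 and 202 FPKM in the wild-type libraries and 205, 198, 200, 202 and 212 FPKM in ΔFOXC2 cells. These overlapped throughout and did not differ beyond their spread (log2 difference 0.04, limma adjusted p = 0.337).

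Of the 10 complex IV genes 9 were tested, of which 2 were higher and none lower, with a median log2 difference of 0.12 (1 higher of 10 and a median of 0.05 without wild-type replicate 1). The share called was 22.2%, against 41.6% of all genes. Cox8a, the ubiquitous form of the small subunit 8 (chromosome 19, 7215158 to 7217616), had 272, 226, 235, 229 and 230 FPKM in the wild-type libraries and 203, 203, 201, 198 and 208 FPKM in ΔFOXC2 cells. The groups did not overlap with or without wild-type replicate 1. The log2 difference was 0.23 (SE 0.0471, limma adjusted p = 0.00229) and 0.18 without that library (adjusted p = 0.000184), and the call held under all 19 alternatives. Cox7b, a small membrane subunit encoded on the X chromosome and the most abundant gene of the complex, had 316, 273, 266, 264 and 258 FPKM in the wild-type libraries and 259, 261, 238, 233 and 248 FPKM in ΔFOXC2 cells. Those groups overlapped, and the adjusted p of 0.0499 (limma; log2 difference 0.15, SE 0.0561) was at the threshold. The call ended on leaving out any of wild-type replicates 1 to 4 or of ΔFOXC2 replicates 1, 3, 4 and 5 (adjusted p up to 0.113).

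Several subunits of complex IV exist as tissue forms, and the lines expressed the ubiquitous ones. Cox6a1, the ubiquitous form of subunit 6a, averaged 120 ± 11.5 against 114 ± 1.68 FPKM and was not called (limma adjusted p = 0.281). Cox6a2, the heart and muscle form, was listed at 0, 0, 0, 0.300 and 1.30 FPKM in the wild-type libraries and at 0.705, 0.704, 0.153, 0.769 and 0.709 FPKM in ΔFOXC2 cells, fell below the filter and was not tested. Cox6b1 averaged 126 ± 14.5 against 119 ± 3.38 FPKM, Cox7a2 73.3 ± 10.5 against 65.0 ± 4.45 FPKM, and Cox7a2l 58.8 ± 4.27 against 54.2 ± 3.12 FPKM. None of these 3 passed the test (limma adjusted p = 0.394, 0.148 and 0.118). Cox4i1, a large nuclear subunit outside the symbol rule and on chromosome 8, was at 104 ± 6.13 against 76.4 ± 3.13 FPKM (log2 difference 0.44, limma adjusted p = 1.73e-05). It lies in one of the stretches from which members were set aside, as do 8 other genes of the lists described further on, among them Coa5, Cmc2 and Coq10b.

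Complex V had 3 genes higher, none lower and 12 not called of 15, with a median log2 difference of 0.05. Without wild-type replicate 1 there were 3 higher and 2 lower (Atp5d and Atp5g2). The share of all genes called with all libraries was 41.6% (20.8% higher and 20.7% lower). Of the 4 genes of the F1 head and central stalk, the catalytic part in the matrix, the α and β subunits were both higher. Atp5a1, the α subunit (chromosome 18), had 155, 145, 139, 149 and 125 FPKM in the wild-type libraries and 120, 123, 114, 130 and 126 FPKM in ΔFOXC2 cells. Only wild-type replicate 5 lay within the ΔFOXC2 range (log2 difference 0.21, SE 0.0565, limma adjusted p = 0.0102). The call held on leaving out any library and ended with values centred by chromosome (log2 difference 0.16, adjusted p = 0.0582). Atp5b, the catalytic β subunit (chromosome 10), had 349, 340, 345, 345 and 344 FPKM in the wild-type libraries and 330, 306, 338, 319 and 327 FPKM in ΔFOXC2 cells. Those groups did not overlap, and the difference was 6.37% (log2 0.09, SE 0.0293, limma adjusted p = 0.0292). Leaving out wild-type replicates 3, 4 or ΔFOXC2 replicates 2, 4, each alone, ended its call (adjusted p up to 0.0661). The call of Atp5b also ended with no variance trend. Over the 19 alternatives its log2 difference was between 0.07 and 0.20, and its limma adjusted p between 0.000406 and 0.0808.

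Atp5o, a peripheral stalk subunit known as OSCP (chromosome 16), had 92.3, 73.6, 74.3, 74.3 and 74.3 FPKM in the wild-type libraries and 67.4, 71.3, 68.0, 68.7 and 69.2 FPKM in ΔFOXC2 cells. The groups did not overlap, with wild-type replicate 1 far above the rest. The log2 difference was 0.17 (SE 0.0595, limma adjusted p = 0.0406) and fell to 0.11 without that library, where the smaller spread gave an adjusted p of 0.00865. On leaving out any of ΔFOXC2 replicates 1, 3, 4 and 5 the call was lost (adjusted p up to 0.0803). The deposited locus spans 91684398 to 91931687 and overlaps Donson and Cryzl1 on the same strand, so this value is uncertain.

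The 3 genes of the c ring encode the same mature protein, and none was called. Atp5g3 was the most abundant at 72.3 ± 8.66 against 63.2 ± 4.21 FPKM, ahead of Atp5g2 at 29.4 ± 2.45 against 31.4 ± 1.70 FPKM and Atp5g1 at 15.6 ± 2.19 against 15.5 ± 1.54 FPKM. Their limma adjusted p-values were 0.0632, 0.219 and 0.973. Atp5s, the least abundant gene counted under complex V, averaged 2.75 ± 0.430 against 2.85 ± 0.219 FPKM and was not called (limma adjusted p = 0.699). Leaving out a library moved 2 of them past the threshold in opposite directions: Atp5g3 was higher without ΔFOXC2 replicate 5 (adjusted p = 0.0466), and Atp5g2 lower without wild-type replicate 1 (adjusted p = 0.0305). Pseudogenes are annotated under the names of Uqcrh, Atp5l, Atp5c1 and Atp5k, and the levels of these 4 members are uncertain to the extent that reads were shared with them.

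**Figure D3:**
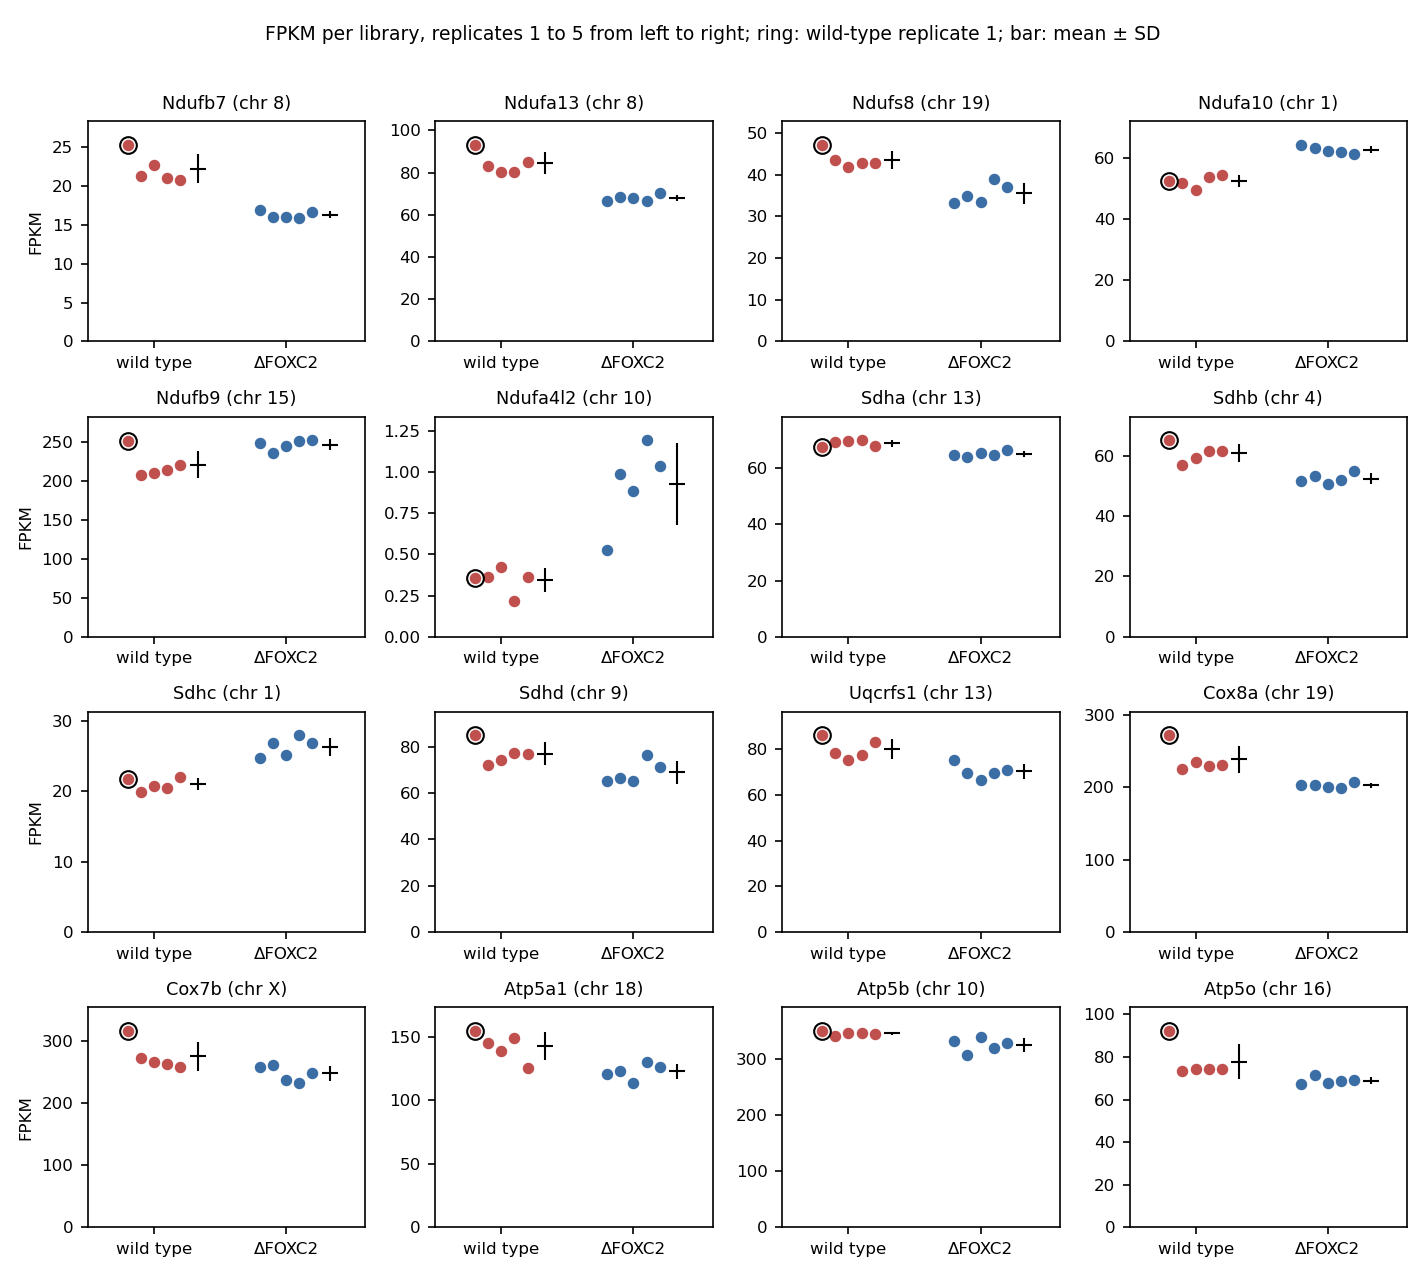
FPKM per library of 16 subunit genes with a limma call, replicates 1 to 5 from left to right in each group, with the mean and SD as a bar and a ring around wild-type replicate 1. The ringed library is the highest wild-type point in most panels, and Ndufb7, Ndufa13, Ndufs8, Sdhb and Cox8a stay separate from ΔFOXC2 cells without it.

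Summed by complex, the largest relative difference was in complex IV, with 1064 ± 91.5 FPKM in the wild-type libraries and 961 ± 18.6 FPKM in ΔFOXC2 cells (10.6% higher). The 5 wild-type sums were 1226, 1019, 1037, 1011 and 1024 FPKM, all above the ΔFOXC2 range of 937 to 983. Without wild-type replicate 1 the wild-type mean was 1023 ± 11.1 FPKM (SD, n = 4) and the difference 6.39%. Complex V summed to 1297 ± 62.4 against 1224 ± 21.3 FPKM, also without overlap, although the lowest wild-type sum of 1247 and the highest ΔFOXC2 sum of 1246 were almost equal, and its difference of 6.01% was 3.78% without wild-type replicate 1. Complex III (831 ± 46.8 against 799 ± 14.2 FPKM) and complex I (2316 ± 120 against 2330 ± 26.2 FPKM) overlapped. The complex III sums were 4.02% higher in the wild type, and 1.48% higher without wild-type replicate 1. For complex I the means differed by -0.589%, and the overlap came from that library, at 2521 FPKM. The other 4 wild-type sums (2217 to 2297 FPKM) were all below the ΔFOXC2 sums (2305 to 2360 FPKM), and their mean of 2265 ± 38.8 FPKM differed by -2.79%. Leaving out wild-type replicate 4 instead gave a difference of 0.477%, so the sign for complex I also depended on single libraries. Sums weight abundant genes and were not tested.

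**Figure D4:**
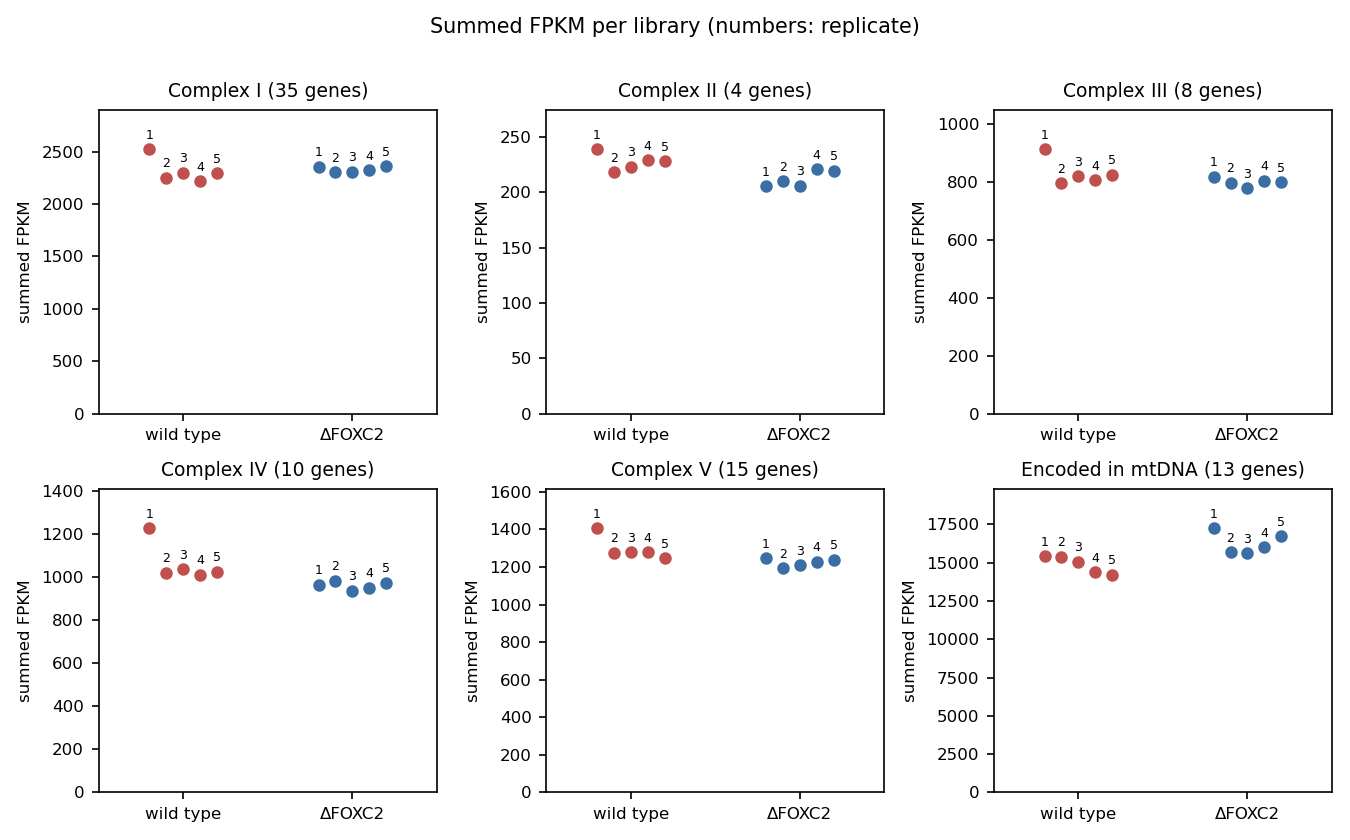
Summed FPKM per library of the member genes of complexes I to V and of the 13 mitochondrially encoded subunit genes, with the replicate number beside each point. Wild-type replicate 1 is the highest library in the 5 nuclear panels, wild-type sums lie above ΔFOXC2 sums in complex IV, and the mitochondrially encoded sums lie below them.

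The subunits encoded in mitochondrial DNA were lower in the wild type. All 13 had a log2 difference below 0, with a median of -0.11. By limma 6 of them were called lower and none higher (7 at an unadjusted p of at most 0.05), where 20.7% of all genes were lower. Their summed FPKM was 15406, 15386, 15060, 14358 and 14222 in the wild type against 17244, 15678, 15623, 16005 and 16710 in ΔFOXC2 cells, without overlap (8.40% lower). Their share of all FPKM was 6.11% ± 0.214 against 6.67% ± 0.241 (SD, n = 5), whereas the 72 nuclear genes held 2.35% ± 0.0897 against 2.27% ± 0.0126. Without wild-type replicate 1 these wild-type shares were 6.10% ± 0.246 and 2.31% ± 0.0177 (n = 4), so the nuclear share was then 1.97% higher in the wild type in relative terms, in place of 3.71%. The number of genes called lower was 5 to 7 over all alternatives and 6 without wild-type replicate 1.

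Among them the complex I genes mt-Nd6 and mt-Nd4l had the largest differences. Mt-Nd6, the subunit gene on the other strand from the rest, had 48.0, 60.2, 65.3, 63.3 and 58.8 FPKM in the wild-type libraries and 80.6, 71.5, 66.1, 70.4 and 79.1 FPKM in ΔFOXC2 cells (log2 difference -0.32, limma adjusted p = 0.00973). Mt-Nd4l averaged 447 ± 17.9 against 520 ± 23.2 FPKM (log2 difference -0.22, limma adjusted p = 0.00101). Neither pair of groups overlapped. The others called were mt-Nd4 (-0.20), mt-Co1 (-0.21), mt-Cytb (-0.15) and mt-Atp8 (-0.16 on the log2 scale), which encode parts of complexes I, IV, III and V. Libraries were selected on oligo(dT), so these levels depend on how well each transcript was captured that way, which was not measured. The mt-Nd4l and mt-Nd4 genes, and mt-Atp8 and mt-Atp6, overlap each other. The mt-Nd6 gene overlaps the end of mt-Nd5 on the other strand, and the use of strand in counting is not known.

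The members on chromosomes 8 and 1 moved with the other genes there. Both members on chromosome 8 were higher (median log2 difference 0.38), and of 578 tested genes of chromosome 8, 408 were higher, 19 were lower and the median was 0.36. All 3 members on chromosome 1 were lower (median -0.32), and of 573 genes of that chromosome 346 were lower, 15 were higher and the median was -0.26. On the other chromosomes 12 members were higher and 2 lower of 66 tested (21.2% called, median 0.04). Of all genes, those of chromosomes 1 and 8 included, 41.6% were called (20.8% higher and 20.7% lower). After centring on the median of each chromosome, 6 members were higher and 2 lower. Ndufa10 and Ndufa13 then changed sign (log2 differences 0.01 and -0.04, neither called), and the differences of Sdhc and Ndufb7 were no longer called (-0.06 and 0.09). The loss was not limited to these chromosomes: of the 14 calls elsewhere 8 ended as well (Ndufa9, Ndufb9, Sdha, Sdhd, Uqcrc1, Cox7b, Atp5a1 and Atp5o), and Atp5g3 and Ndufc1 were newly called. Whether the chromosomes differ in copy number between the lines was not tested.

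Of 56 tested genes listed as assembly factors, most of which build the complexes without being part of them, 9 were higher and 13 lower (39.3% called, against 41.6% of all genes). Of the 48 that lie on neither chromosome 1 nor 8, 6 were higher and 9 lower. Subunits were called in 26.8% of cases, and the difference between these shares was not tested. For complex I, 1 of 18 was higher (Ndufaf6, log2 difference 0.21) and 2 were lower. Ndufaf3 was the larger of these, at 2.83 ± 0.297 against 4.41 ± 0.498 FPKM without overlap (log2 difference -0.62, limma adjusted p = 0.000384), and was the only assembly factor called at 1.5-fold, followed by Lyrm2 (-0.23). It fell just short of 1.5-fold without wild-type replicate 3 (-0.57) or ΔFOXC2 replicate 3 (-0.58) and was at -0.50 with a pseudocount of 1 FPKM, with an adjusted p of at most 0.00148 over the fits that left out 1 library. Ndufaf6 did not pass on leaving out any of wild-type replicates 1, 3 and 4 or of ΔFOXC2 replicates 1, 3 and 5 (limma adjusted p up to 0.0783).

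Of the 4 factors for complex II, Sdhaf4, a chaperone of Sdha on chromosome 1, was lower (log2 difference -0.49). On that chromosome the median over tested genes was -0.26. For complex III, 1 of 7 was higher and 4 were lower (71.4% called, against 41.6% of all genes). The higher gene was Hccs (log2 difference 0.24), which attaches heme to cytochrome c and c1. The lower ones included Bcs1l, which inserts the Rieske protein and lies on chromosome 1, at 2.60 ± 0.285 against 3.75 ± 0.443 FPKM (log2 difference -0.51, limma adjusted p = 0.00187). Ttc19, which removes fragments of the Rieske protein, was at 2.83 ± 0.293 against 3.91 ± 0.312 FPKM (log2 difference -0.45, limma adjusted p = 0.00143). Neither pair of groups overlapped, and the Rieske gene Uqcrfs1 itself was higher in the wild type.

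For complex IV, 5 of 24 factors were higher and 6 lower (45.8% called, against 41.6% of all genes). The 24 include Lrpprc, Slirp and Taco1, which do not build the complex themselves. Lrpprc was among the higher genes (log2 difference 0.14, limma adjusted p = 0.0254), and Slirp and Taco1 were not called. Coa5 on chromosome 1 (log2 difference -0.45) and Cox18, an insertase for subunit 2 (-0.40), were lower, and Cmc2 on chromosome 8 (0.32) and Coa7 (0.30) were higher. The median over tested genes was -0.26 on chromosome 1 and 0.36 on chromosome 8. Centred on its chromosome, Cmc2 had a log2 difference of -0.04 and was not called. Pet117 was listed at 19.2 FPKM in ΔFOXC2 replicate 3 and below 0.005 FPKM in the other 9 libraries (limma adjusted p = 0.376) and is named after its values were seen. Both called factors for complex V, of 4, were higher: Atpaf2, a chaperone of the α subunit (log2 difference 0.22), and Fmc1 (0.42).

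Nuclear regulators of mitochondrial genes were called in 8 of 20 cases (40.0%, against 41.6% of all genes), 7 higher and 1 lower. Ppargc1a, which encodes PGC-1α, had 1.27, 1.82, 1.41, 1.81 and 2.49 FPKM in the wild-type libraries and 0.957, 0.867, 1.09, 1.53 and 0.910 FPKM in ΔFOXC2 cells. Most wild-type libraries were above the ΔFOXC2 libraries, with overlap through ΔFOXC2 replicate 4. It was the only regulator called at 1.5-fold (log2 difference 0.66, SE 0.189, limma adjusted p = 0.0159), and was under 1.5-fold without wild-type replicate 5 (0.53) or with a pseudocount of 1 FPKM (0.41). Mitf, its known regulator in human melanoma, was lower in the wild type (64.3 ± 9.17 against 86.9 ± 9.08 FPKM). Its groups overlapped (log2 difference -0.44, limma adjusted p = 0.00437). Whether Mitf bears on Ppargc1a in these mouse lines was not tested. Gabpb1, a partner subunit of GABP, was at 3.93 ± 0.312 against 2.71 ± 0.553 FPKM (log2 difference 0.54, limma adjusted p = 0.00549), and Nrf1 at 4.38 ± 0.172 against 3.75 ± 0.176 FPKM (log2 difference 0.22, limma adjusted p = 0.00811), both without overlap.

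The other regulators looked at by name did not pass. Ppargc1b averaged 3.23 ± 0.360 against 3.24 ± 0.322 FPKM, Esrra 3.47 ± 0.276 against 3.14 ± 0.446 FPKM, and Tfam, which packages mitochondrial DNA and starts its transcription, 14.7 ± 0.692 against 14.7 ± 1.35 FPKM. Gabpa, the DNA-binding subunit of GABP, had 16.7 FPKM in wild-type replicate 1 and 24.6 to 26.5 in the other wild-type libraries, against 18.4 to 21.2 in ΔFOXC2 cells. It was not called (limma adjusted p = 0.111) and was higher without wild-type replicate 1 (log2 difference 0.35, adjusted p = 0.000414). Tfb2m, a mitochondrial transcription factor on chromosome 1, was lower (log2 difference -0.13, limma adjusted p = 0.0183), and centred on its chromosome it was higher (0.14). The number of higher regulators was 9 without wild-type replicate 1, and 11 with values centred by chromosome.

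Nuclear subunits outside the symbol rule were higher in 2 of 5 cases, Cox4i1 and 2010107E04Rik, a small subunit of complex V (log2 difference 0.14), which did not pass on leaving out any of wild-type replicates 1, 3 and 4 or of ΔFOXC2 replicates 3 and 4 (limma adjusted p up to 0.0931). Cyc1, the cytochrome c1 of complex III, averaged 71.6 ± 3.55 against 70.5 ± 3.40 FPKM and was not called. The share called of these 5 was 40.0%, against 41.6% of all genes. Of 7 electron carriers and associated factors only Etfa, which passes electrons from fatty acid oxidation, was called (log2 difference 0.15), and it lost its call without any one of 8 libraries, all except wild-type replicate 3 and ΔFOXC2 replicate 4 (limma adjusted p up to 0.0850). Cycs, cytochrome c, was at 110 ± 6.03 against 116 ± 5.79 FPKM and was not called (limma adjusted p = 0.221; 0.0490 without wild-type replicate 1).

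Of 13 genes of coenzyme Q synthesis and handling, Pdss1 was higher (log2 difference 0.23) and Coq10b, on chromosome 1, lower at 1.31 ± 0.179 against 2.15 ± 0.143 FPKM (log2 difference -0.69, limma adjusted p = 0.000252). The median log2 difference over the tested genes of chromosome 1 was -0.26. The call of Pdss1 was lost without any one of 8 libraries, all except wild-type replicate 1 and ΔFOXC2 replicate 4 (limma adjusted p up to 0.107). Of 20 genes taken as measures of mitochondrial content, 8 were higher and 1 lower, and 4 and 1 of the 15 on neither chromosome 1 nor 8. These are 45.0% and 33.3% called, against 41.6% of all genes. Slc25a4, an ADP/ATP carrier on chromosome 8, had 357, 317, 327, 328 and 332 FPKM in the wild-type libraries and 220, 192, 191, 214 and 214 FPKM in ΔFOXC2 cells. The groups were far apart (log2 difference 0.69, SE 0.0485, limma adjusted p = 1.10e-06). The median log2 difference over the tested genes of chromosome 8 was 0.36. Timm44 of the import motor, also on chromosome 8, had a log2 difference of 0.45, and the outer-membrane fusion gene Mfn2 one of -0.34 (limma adjusted p = 0.00332).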

How the data were processed

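RNA from 10 cultures was measured, 5 per genotype. The authors deposited FPKM values per gene; per the submitters' processing notes, reads were handled with StringTie, HISAT2, cutadapt and FastQC, no version being given, and the build was GRCm38. Per the labels' protocols, RNA was enriched on oligo(dT) and strand-specific (dUTP) libraries were read for 150 cycles from both ends; the use of strand in counting is not given in the sources used here. Read depth is unknown, since low values shared no step: of 480 low genes at most 5 had the same ratio in any pair of libraries. FPKM is relative to all fragments of a library, so a change in abundant genes shifts the others.

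The test was limma (version 3.58.1, under R version 4.3.3; lmFit, eBayes with trend, two-sided, no covariates) on log2(FPKM + 0.1) for 10570 genes whose mean reached 0.5 FPKM. The other 165 genes were not tested. P-values were Benjamini-Hochberg adjusted over all genes, and a gene was called at an adjusted p of at most 0.05. The pseudocount makes log2 differences of low genes smaller. The design text's 1.5-fold was counted separately. The fit was tested on simulated data.

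The members, lists and rule for named genes were chosen with earlier results of these data known. By that rule each complex gives all 10 values for its 3 members with the smallest p among those called, its most different, its most abundant and any called at 1.5-fold. Group means are given for the least abundant member of each complex, for paralogues and for members on chromosomes 1 and 8. Of each list, up to 2 called genes per direction are named, with Cox4i1, Cyc1, Cycs, Ppargc1a, Ppargc1b, Nrf1, Gabpa, Esrra and Tfam by name. After values were seen, 2 genes that did not belong were taken out of the lists and the list of subunits outside the rule was split in 3. Foxc2 was not analysed here, and 1 member, included in the counts and sums, is not reported on its own. The alternatives were other pseudocounts, filters and scaling, no variance trend, robust variances, a replicate block, values centred by chromosome, unadjusted p and leaving out each library. For the lists they were applied after seeing the data. Gene overlaps come from GENCODE M21.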

Additional observations from a re-analysis of the deposited data

Results flagged for a closer look

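Within each group of 5 libraries the highest and the lowest value of the members were compared with their neighbour, and a library was marked where the gap exceeded 0.710 of the whole range (Dixon's 95% value). Of 142 groups, 19 were marked, where chance marks about 1 in 20. No explanation was tested.

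In 14 of the 19 the marked value was wild-type replicate 1, always as the highest. In complex I these were Ndufa2 at 69.6 FPKM (58.5 to 61.3 in the other wild-type libraries), Ndufa8 at 102 (80.9 to 85.8), Ndufb9 at 252 (208 to 220) and Ndufv3 at 45.1 (38.4 to 39.7). In complex IV they were Cox6a1 at 140 FPKM (111 to 119), Cox7a2 at 91.4 (64.2 to 72.0), Cox7b at 316 (258 to 273) and Cox8a at 272 (226 to 235). In complex V they were Atp5d at 53.6 FPKM (45.3 to 46.8), Atp5g3 at 87.4 (66.8 to 71.4), Atp5h at 156 (140 to 144), Atp5k at 121 (92.3 to 98.4), Atp5l at 15.9 (14.3 to 14.4) and Atp5o at 92.3 (73.6 to 74.3).

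The other marked values were ΔFOXC2 replicate 3 for Ndufb8 at 21.8 FPKM (23.1 to 23.6), for Cox7a2l at 48.8 (54.5 to 56.6) and for Cox6a2 at 0.153 (0.704 to 0.769), ΔFOXC2 replicate 1 for Ndufs6 at 64.0 (70.3 to 72.8), and wild-type replicate 5 for Cox6a2 at 1.30 (0 to 0.300).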

How the results depend on the processing

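Ndufs8, Sdhb, Uqcrfs1 and Cox8a kept their calls under all 19 alternatives, and Ndufa4l2 under the 18 in which it was tested. The count of 14 higher members was 7 with no variance trend, 6 with values centred by chromosome and 22 with the unadjusted p. The count of 5 lower members was 2 with values centred by chromosome. Over the fits that left out 1 library, higher members ranged from 8 to 14 and lower members from 4 to 12, the 12 being without wild-type replicate 1. The single call at 1.5-fold became 0 with a pseudocount of 1 FPKM and with a filter at a mean of 5 FPKM, which removed Ndufa4l2. Centring by chromosome turned the sign of 4 named genes: the log2 difference of Ndufa10 became 0.01015, the log2 difference of Ndufa13 -0.04185, the log2 difference of Cmc2 -0.03645 and the log2 difference of Tfb2m 0.1368. It subtracts the median shift of each chromosome by construction. The number of higher regulators was 3 with the filter at 5 FPKM, which tests fewer genes, and that of higher assembly factors 5 after centring. Deviations of same-numbered libraries of the 2 genotypes were weakly correlated (0.137, -0.121, 0.0521, 0.0858 and 0.114 for replicates 1 to 5). The highest correlation of each wild-type library with a ΔFOXC2 library of another number was 0.0792, 0.0927, 0.0898, 0.101 and 0.112 in turn. These values do not decide whether the numbers pair the libraries. With the replicate number as a block 10 members were higher and 5 lower. The cause of these changes was otherwise not tested. The number of libraries, an unknown depth and mostly small differences limit what could be called.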
